A study of Homo sapiens with 6 samples.

Results

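The genes of MHC class I antigen presentation were examined in MCF10A cells, an established, nonmalignant human breast epithelial cell line, with and without knockdown of the RasGAP DAB2IP. The 9 members were given by name as HLA-B, HLA-C, HLA-E, HLA-F, B2M, TAP1, TAP2, PSMB8 and PSMB9, and each name matched a single row among the 58735 genes of the deposited count table. The siDAB2IP group (3 libraries) received siRNA against DAB2IP, and the siControl group (3 libraries) received a non-targeting pool. Per the labels, both groups grew in the same medium, with horse serum, insulin, EGF, cholera toxin and hydrocortisone and were collected 48 hours after transfection. RNA-Seq was performed on total RNA, and the question was how loss of DAB2IP alters gene expression in a breast epithelial cell. A single siRNA pool per group was used in a single cell line, so an effect of the siRNA pool itself and an effect of DAB2IP loss cannot be told apart. The labels do not say whether the libraries of a group came from separate cultures, and p-values then measure only the spread between these libraries.

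MHC class I molecules present peptides from the inside of a cell to CD8+ T cells, and natural killer cells sense their level. Proteasomes cut proteins into peptides, and the immunoproteasome, in which PSMB8, PSMB9 and PSMB10 take the places of the constitutive catalytic subunits PSMB5, PSMB6 and PSMB7, favors peptides that fit class I molecules. The transporter TAP1/TAP2 carries the peptides into the endoplasmic reticulum, where a loading complex with tapasin helps to place them on a heavy chain (an HLA gene product) bound to β2-microglobulin, the product of B2M. In epithelial cells these genes are expressed at a basal level and are inducible by interferon γ and by NF-κB, the transcription factor whose activation DAB2IP is known to restrain.

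B2M lies on chromosome 15 (44711487 to 44718877, plus strand, GRCh38), and the other 8 genes lie in the MHC on chromosome 6, between 29722775 (the start of HLA-F) and 32859585 (the end of PSMB9). TAP1, TAP2, PSMB8 and PSMB9 are neighbors between 32821833 and 32859585, and the RefSeq starts of TAP1 and PSMB9 point away from each other, 488 bases apart. Of the 9 members, 8 had a RefSeq promoter entry (250 bases before to 50 after the start, GRCh38.p14). Parts of 5 of these are shown because they differ in the letters of NF-κB and interferon-type elements. Capitals mark matches, on either strand, to the NF-κB consensus or to GAANNGAAA, a pattern that resembles interferon-type elements but does not cover all their forms. Each sequence is written 5′ to 3′ on the strand of the gene.
HLA-B, minus strand, chr6:31357310-31357369: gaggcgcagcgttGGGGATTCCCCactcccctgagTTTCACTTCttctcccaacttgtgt
HLA-C, minus strand, chr6:31272223-31272282: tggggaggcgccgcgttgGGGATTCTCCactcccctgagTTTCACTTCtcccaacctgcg
HLA-F, plus strand, chr6:29723255-29723284: gagaattccccatctccccagagtttctct
B2M, plus strand, chr15:44711367-44711426: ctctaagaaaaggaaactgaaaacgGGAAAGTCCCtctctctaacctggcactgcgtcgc
TAP1, minus strand, chr6:32853757-32853786: gcctgttcctGGGACTTTCCgagagccccg
The HLA-B, HLA-C and B2M windows hold no annotated exon of their gene, the HLA-F window holds 6 exonic bases, and the TAP1 window lies within an exon of a TAP1 transcript that starts further upstream. Both classical heavy chain genes shown, HLA-B and HLA-C, carry an NF-κB match followed by a GAANNGAAA match. HLA-F carries neither in its entry. Over the whole entries, the NF-κB consensus matched in 4 members (HLA-B, HLA-C, B2M and TAP1), GAANNGAAA in 3 (HLA-B, HLA-C and TAP2) and CCAAT in 6. Among 35116 promoter entries of the same length, 11.3% held the NF-κB consensus, 7.7% GAANNGAAA and 34.6% CCAAT. Other forms of interferon-type elements were not searched, so a missing GAANNGAAA match does not show that such an element is absent. The B2M window holds gaaactgaaa, which has an additional A before the letters NN and so does not match GAANNGAAA. A match describes letters and not binding.

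Each library held 16353783 to 21916062 counts. Levels are given in CPM, the count scaled to the library total with the TMM factors of edgeR, and a count of 0 allowed up to 0.139 to 0.187 CPM, by counting error only. DAB2IP was at 103, 94.2 and 77.4 CPM in the siControl libraries and at 27.5, 25.6 and 22.4 CPM after knockdown, a log2 fold change of −1.86 (standard error (SE) 0.13, edgeR adjusted p = 9.71e-05). The labelled cell type was visible in its markers: all 7 basal mammary epithelial markers were expressed, with a summed level of 9512 to 11748 CPM in siControl and 6810 to 8277 CPM in siDAB2IP. Of these markers, 4 fell (KRT5, KRT14, KRT17 and KRT6A) and LAMB3 rose, from a mean of 856 to 1733 CPM (edgeR adjusted p = 0.00128). Leukocytes are rich in class I molecules. Of their 10 markers, 3 were at 0 counts in all 6 libraries, CD3E and MS4A1 among them, and 7 stayed under 1 CPM in each. Their sum was 37.3 to 72.0 CPM in siControl and 51.4 to 78.2 CPM in siDAB2IP, nearly all of it CD14. CD74 was lower, at 1.31, 0.696 and 0.47 CPM in siControl and at 0.226, 0 and 0 CPM in siDAB2IP. All 4 endothelial markers had a log2 fold change below 0, with a sum of 23.1 to 33.1 CPM in siControl and 14.8 to 16.3 CPM in siDAB2IP, and 1 of them, KDR, fell. Fibroblast markers summed to 163 to 293 and 146 to 206 CPM, and COL1A1 alone among them passed the threshold, upward. All 6 libraries are labelled as the MCF10A cell line, and a marker's level does not by itself show another cell type. Whether other cells had a part in the members' values was not tested. In bulk RNA, fewer cells of a kind and less RNA per cell cannot be told apart. The strand used in counting is not given in the sources used here, so reads of a gene and of its partner on the opposite strand cannot be separated.

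Levels of different genes were compared per length, in the FPKM values that the authors deposited. The length is that of all annotated exons of a gene merged, 6079 bases for B2M and 2507 for HLA-C. The order of genes and the level of any ratio between genes depend on these lengths. In CPM, which is not divided by length, B2M and HLA-C had means of 1111 and 398 in siControl. In siDAB2IP these means were 826 and 375 CPM. In the siControl libraries, B2M was the most abundant member at 181 FPKM (mean, n = 3), followed by HLA-C at 158, HLA-E at 91.4, HLA-B at 75.0, TAP1 at 27.3, TAP2 at 11.5, PSMB8 at 9.80, HLA-F at 6.47 and PSMB9 at 0.982 FPKM. The ranges of B2M and HLA-C overlapped, as did those of HLA-E and HLA-B and those of TAP2 and PSMB8, so the order within these pairs was not clear of the spread between libraries. The other neighbors in this order did not overlap. The members thus spanned more than 100-fold in abundance, with PSMB9, an inducible proteasome subunit, at the bottom. With knockdown the means were 134 FPKM for B2M, 148 for HLA-C, 83.1 for HLA-E, 56.8 for HLA-B, 23.9 for TAP1, 11.3 for TAP2, 7.24 for PSMB8, 4.57 for HLA-F and 0.598 for PSMB9, and the mean of HLA-C then stood above that of B2M, with overlapping ranges. HLA-G, a nonclassical heavy chain gene that is no member and is named after its values were seen, was at 0 counts in all libraries.

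**Figure D1:**
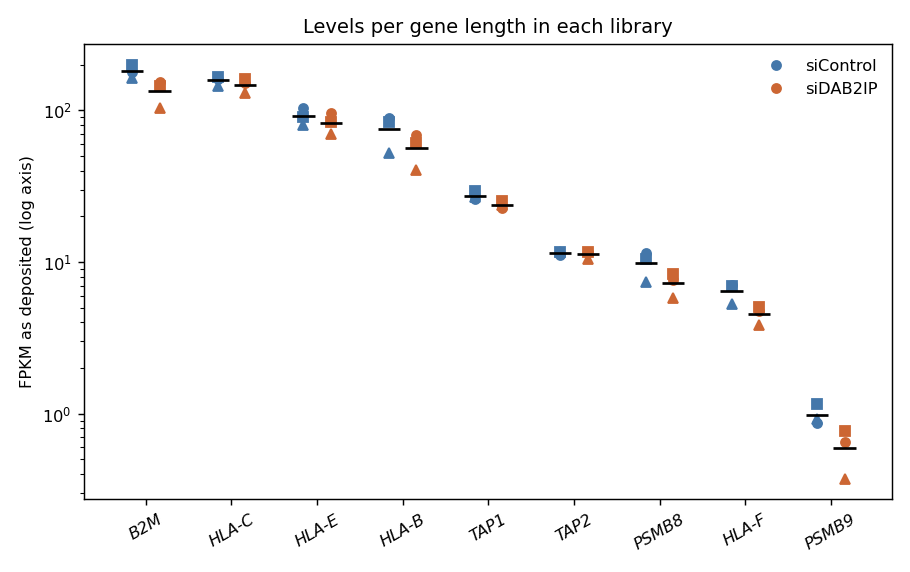
FPKM of each member (log axis) in the 3 siControl libraries (blue) and 3 siDAB2IP libraries (orange), with circles, squares and triangles for replicates 1, 2 and 3 and a bar at each group's mean. B2M and HLA-C lie at the top (181 and 158 FPKM in siControl) and PSMB9 at the bottom (0.982 FPKM).

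With DAB2IP knockdown all 9 members had a log2 fold change below 0, as did 48.9% of all genes tested, but the differences were small and most lay within the spread between libraries. In edgeR's quasi-likelihood test without a replicate term, 0 of the 9 members rose and 0 fell at an adjusted p under 0.05, against 6.55% of all genes tested that rose and 7.65% that fell. At an unadjusted p under 0.05, 4 were lower (HLA-F, B2M, PSMB8 and PSMB9) and 0 higher, against 15.5% and 14.5% of all genes, and DESeq2 called 2 lower (HLA-F and B2M) and 0 higher, against 9.76% and 7.86%. The libraries carry replicate numbers, and deviations from the group means correlated weakly between libraries of the same number (0.26, 0.15 and 0.25 across genes). Pairing by number is thus an assumption, and the blocked calls rest on it. With the replicate number as a block, 4 members fell (HLA-B, HLA-F, B2M and PSMB8) and 0 rose, against 11.4% and 9.59% of all genes. Without a filter on low counts, edgeR called 4 members lower (HLA-B, HLA-F, B2M and PSMB8) and 0 higher, against 5.72% and 4.21%. That fit used the same libraries, and the SE of HLA-B was 0.12 against 0.22 with the filter, at nearly the same estimate. In same-numbered pairs, 8 of the 9 members, all except TAP2, were lower in siDAB2IP in each of the 3 pairs, and 0 were higher in each, against 28.3% and 27.9% of all genes. For HLA-F, B2M, TAP1 and PSMB9 the groups did not overlap, each siDAB2IP library lying below each siControl library, which held for 18.3% of all genes. The members' median log2 fold change was −0.40, beside 0.01 over the 15430 genes tested. Their summed level was 2025 to 2453 CPM in siControl and 1526 to 2060 CPM in siDAB2IP, so the sums overlapped.

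These calls depended on the libraries in the fit. Replicate 3 was the lowest library of both groups for HLA-B, HLA-C, HLA-E, HLA-F, B2M and PSMB8. With the replicate block, leaving out both libraries numbered 3 left 4 members that fell (14.8% of all genes fell and 13.9% rose), leaving out both numbered 1 left B2M alone (6.46% and 3.66%), and leaving out both numbered 2 left 0 (5.07% and 2.83%), with 0 members that rose each time. So few libraries remain in these blocked fits that each gene's spread is estimated largely from that of other genes. Without the block, leaving out siControl replicate 3 made HLA-F a call (log2 fold change −0.64, edgeR adjusted p = 0.0418), and no other single omission called a member. In that fit, without siControl replicate 3, 650 of all 15840 genes tested fell and 398 rose.

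**Figure D2:**
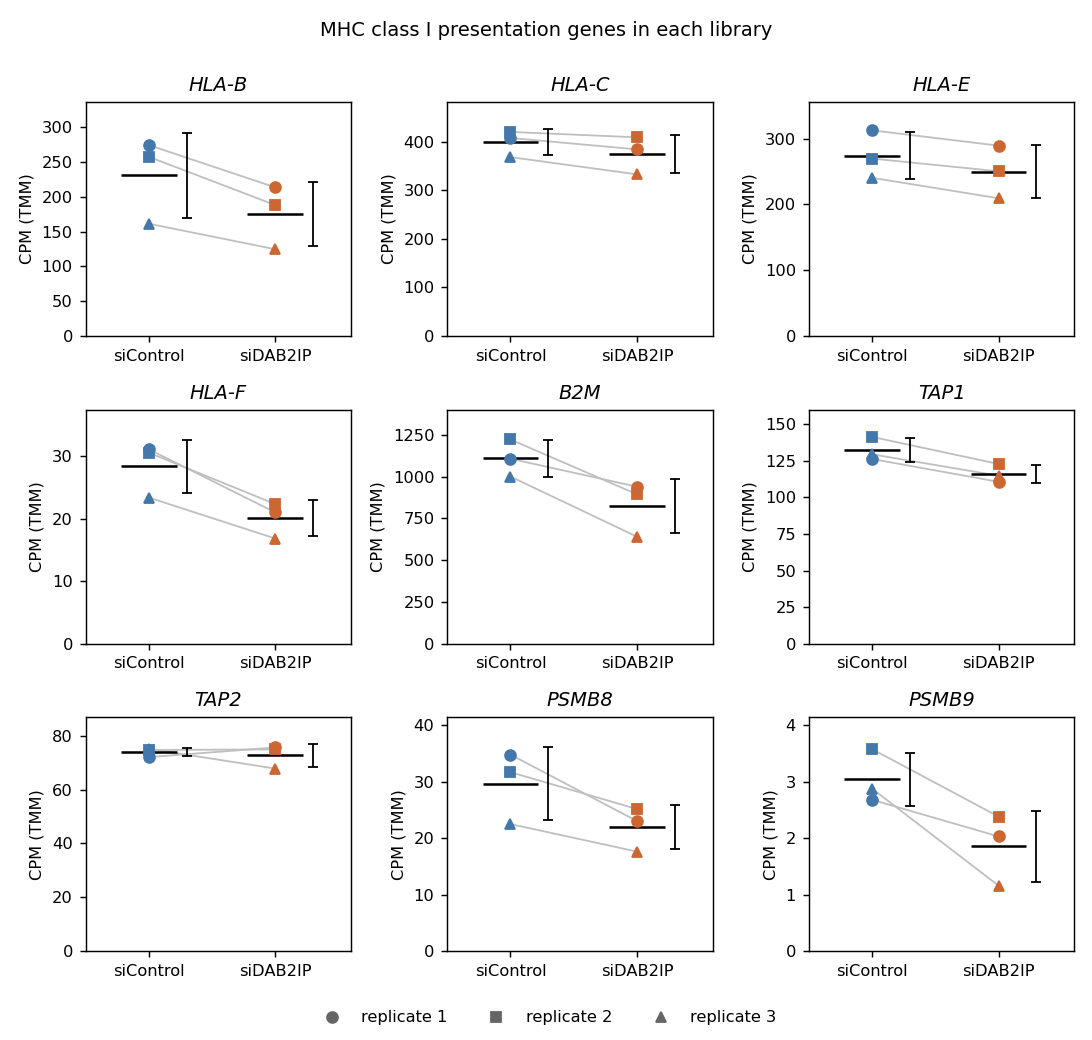
CPM (TMM-scaled, axis from 0) of each member in every library, with siControl in blue and siDAB2IP in orange, grey lines joining libraries of the same replicate number, black bars at the means and brackets for ± 1 SD (n = 3). The lines slope down in all 3 pairs for 8 members and not for TAP2, and the groups are apart for HLA-F, B2M, TAP1 and PSMB9.

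Among the heavy chains, all 4 were lower with knockdown in each same-numbered pair, and HLA-B and HLA-F fell past the threshold with the replicate block while HLA-C and HLA-E did not. HLA-B, a classical heavy chain, was at 274, 257 and 161 CPM in siControl and at 213, 188 and 125 CPM in siDAB2IP. The groups overlapped because siControl replicate 3 lay below 2 of the siDAB2IP libraries, yet the drop within pairs was even, at −0.36, −0.45 and −0.37 on the log2 scale. The log2 fold change was −0.40 (SE 0.22, edgeR adjusted p = 0.269), and with the replicate block it was −0.40 (SE 0.08, adjusted p = 0.0130). Without the block it was −0.20 when siDAB2IP replicate 3 was left out and −0.62 when siControl replicate 3 was left out. HLA-F, a nonclassical heavy chain, was at 31.1, 30.5 and 23.4 CPM in siControl and at 21.0, 22.3 and 16.8 CPM in siDAB2IP. All 3 siDAB2IP libraries were below the lowest siControl library (two-sided exact permutation test, p = 0.1, the smallest that 3 libraries against 3 allow). Its log2 fold change was −0.50 (SE 0.16, edgeR adjusted p = 0.0595), and it passed the threshold with the block (edgeR adjusted p = 0.0140) and under DESeq2 (0.0313). Exons of HLA-F share 28.5% of their bases with genes on the opposite strand, 535 of them with the tested gene HLA-F-AS1.

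HLA-C, the most abundant heavy chain and a ligand of killer cell receptors, was at 407, 420 and 368 CPM in siControl and at 384, 409 and 333 CPM in siDAB2IP. The groups overlapped, and the log2 fold change was −0.09 (SE 0.11, edgeR adjusted p = 0.664; 0.514 with the block). HLA-E, which presents leader peptides of other class I chains to natural killer cells, was at 313, 270 and 241 CPM in siControl and at 290, 251 and 209 CPM in siDAB2IP, a log2 fold change of −0.14 (SE 0.14, edgeR adjusted p = 0.571; 0.284 with the block). The ratio of HLA-B to HLA-C in FPKM, added after the data had been seen, averaged 46.4% in siControl and 37.6% in siDAB2IP (geometric means), a log2 difference of −0.31 with overlapping groups (two-sided exact permutation test, p = 0.3), and it was lower in all 3 same-numbered pairs (paired exact permutation test, p = 0.25, the smallest possible). The classical HLA genes are similar in sequence and vary between people, so reads may have been shared between them or lost against the reference, and their separate values are uncertain. HLA-B and HLA-C share 35 exonic bases in the annotation. HLA-B also shares 542 exonic bases (17.8%) with a pseudogene on the opposite strand that was not among the genes tested.

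B2M, the light chain that all class I heavy chains need to reach the surface, was at 1108, 1224 and 1002 CPM in siControl and at 941, 895 and 641 CPM in siDAB2IP. The groups did not overlap, and siDAB2IP replicate 3 was the lowest. The log2 fold change was −0.43 (SE 0.16, edgeR adjusted p = 0.0988), −0.44 with the replicate block (SE 0.11, adjusted p = 0.0236) and −0.43 with DESeq2 (adjusted p = 0.0348). Without siDAB2IP replicate 3 it was −0.28. B2M shares no exonic base with another gene. In summed FPKM of HLA-B, HLA-C, HLA-E and HLA-F, the heavy chains stood at 1.82 times B2M in siControl and at 2.19 times B2M in siDAB2IP (geometric means). These levels rest on the merged exon lengths, and B2M has the longer one by far against HLA-C. On the log2 scale the ratio was 0.86 ± 0.12 and 1.13 ± 0.09 (SD, n = 3), a difference of 0.27, with each siDAB2IP library above each siControl library (two-sided exact permutation test, p = 0.1, and 0.1 adjusted over the 4 planned ratios). The ratio of B2M to HLA-C, added after the data had been seen, went from 115% to 89.8%, again without overlap (two-sided exact permutation test, p = 0.1).

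TAP1 and TAP2, which together form the peptide transporter, differed little between the groups. TAP1 was at 126, 141 and 130 CPM in siControl and at 111, 123 and 115 CPM in siDAB2IP, so the groups did not overlap. The drop was of a similar size in each pair (−0.19, −0.20 and −0.17 on the log2 scale), and the log2 fold change was −0.19 (SE 0.09, edgeR adjusted p = 0.214; 0.135 with the block). TAP2 was at 72.0, 74.7 and 75.1 CPM in siControl and at 75.6, 74.9 and 67.8 CPM in siDAB2IP. It was the only member that was not lower in every pair, and its log2 fold change was −0.02 (SE 0.09, edgeR adjusted p = 0.898), which turned to 0.03 without siDAB2IP replicate 3 and to 0.01 with scaling by library size only. The TAP1 to TAP2 ratio in FPKM, added after the data had been seen, was 2.38 in siControl and 2.12 in siDAB2IP, with no overlap between the groups (two-sided exact permutation test, p = 0.1). Of the exonic bases of TAP2, 32.3% are shared with a gene on the same strand that was too low to test. TAP1 shares 456 exonic bases (9.5%) with the tested gene PSMB8-AS1 on the opposite strand.

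**Figure D3:**
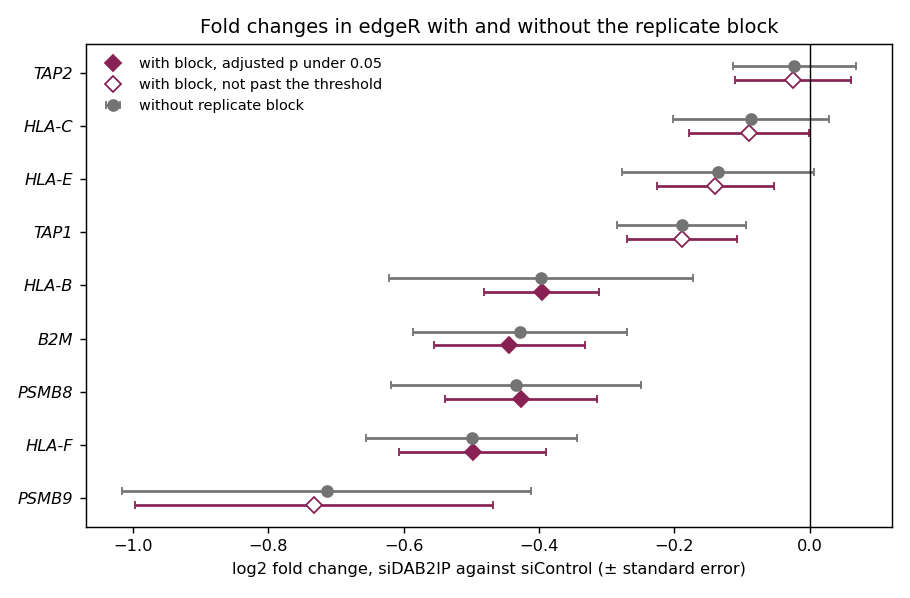
Log2 fold change of siDAB2IP against siControl (bars, ± 1 standard error) for the 9 members, from edgeR without (grey circles) and with the replicate block (diamonds, filled where the adjusted p was under 0.05). The estimates hardly move between the fits while the standard errors shrink, for HLA-B from 0.22 to 0.08, and 4 diamonds are filled.

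Of the immunoproteasome subunits, PSMB8 was lower in each pair and fell past the threshold with the replicate block. PSMB8, the chymotrypsin-like subunit, was at 34.8, 31.7 and 22.5 CPM in siControl and at 23.0, 25.1 and 17.6 CPM in siDAB2IP, and the groups overlapped through siControl replicate 3. Its log2 fold change was −0.43 (SE 0.18, edgeR adjusted p = 0.145), and with the block it was −0.43 (SE 0.11, adjusted p = 0.0287). PSMB9 was rare, at 2.68, 3.57 and 2.88 CPM in siControl and at 2.03, 2.38 and 1.16 CPM in siDAB2IP, with 20 to 77 counts per library. Its groups did not overlap, and its log2 fold change of −0.71 was the most negative among the members but had the widest error (SE 0.30, edgeR adjusted p = 0.143; 0.0814 with the block). Without siDAB2IP replicate 3, it was −0.47. PSMB10, the remaining inducible subunit, went from 3.61 ± 0.52 to 1.86 ± 0.61 CPM (mean ± SD, n = 3), a log2 fold change of −0.96 (SE 0.29, edgeR adjusted p = 0.0522; 0.0267 with the block). PSMB8 shares 618 exonic bases and PSMB9 174 with PSMB8-AS1, PSMB8 and PSMB9 share 139 with each other, and PSMB10 shares 644 with AC040162.1.

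The constitutive subunits that these replace went the other way. PSMB5 rose from 87.3 ± 10.5 to 132 ± 14.7 CPM (mean ± SD, n = 3, log2 fold change 0.60, edgeR adjusted p = 0.0122), and PSMB7 rose from 56.2 ± 5.81 to 77.2 ± 9.69 CPM (log2 fold change 0.46, adjusted p = 0.0328). PSMB6 was at 40.4 ± 5.64 and 51.5 ± 5.65 CPM, with each siDAB2IP library above each siControl library (log2 fold change 0.35, edgeR adjusted p = 0.10; 0.0322 with the block). The call of PSMB5 was lost without siControl replicate 2 (edgeR adjusted p = 0.0517), and that of PSMB7 in 5 of the 6 leave-one-out fits (adjusted p up to 0.123), all but the fit without siDAB2IP replicate 3. In each library pair, every inducible subunit stood lower against its constitutive partner. In FPKM, PSMB8 stood at 19.7% of PSMB5 in siControl and at 9.70% in siDAB2IP (geometric means), a log2 difference of −1.03. PSMB9 stood at 3.55% and 1.63% of PSMB6 (−1.12), and PSMB10 at 6.18% and 2.25% of PSMB7 (−1.46). In all 3 ratios each siDAB2IP library was below each siControl library, and every two-sided exact permutation test gave p = 0.1, also adjusted over the 4 planned ratios. The paired exact permutation test gave p = 0.25, the smallest that 3 pairs allow. Leaving out any single library kept the 3 differences between −0.89 and −1.71.

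**Figure D4:**
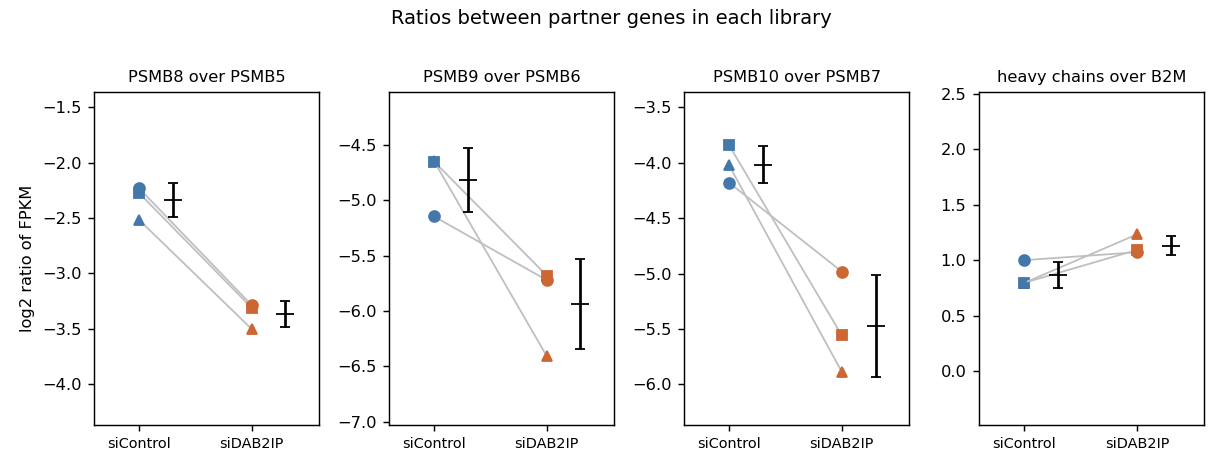
Log2 ratio of FPKM in each library for 3 inducible over constitutive proteasome subunit pairs and for the summed heavy chains over B2M, with panels of equal height (3 log2 units), siControl in blue, siDAB2IP in orange, circles, squares and triangles for replicates 1, 2 and 3, grey lines joining equal numbers and brackets for the mean ± 1 SD (n = 3). The groups do not overlap in any panel: the 3 proteasome ratios are lower with knockdown (differences −1.03, −1.12 and −1.46) and the heavy chain to B2M ratio is higher (0.27).

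The other genes of the class I pathway were grouped in 8 lists, of which 112 genes were tested. Of these, 14 rose and 16 fell, against 6.55% and 7.65% of all genes tested. Left-out libraries moved these counts: leaving out siControl replicate 1 gave 3 and 9, siControl replicate 2 gave 1 and 5, siControl replicate 3 gave 2 and 10, siDAB2IP replicate 1 gave 6 and 15, and siDAB2IP replicate 2 gave 9 and 11. Over all genes these omissions gave 264 to 707 that rose and 459 to 1019 that fell. Of the 13 genes of peptide loading, trimming and chaperones, 5 fell and 0 rose (0 also by DESeq2, 1 at an unadjusted p under 0.05), and the list's median log2 fold change was −0.31. TAPBP, which encodes tapasin, the bridge between TAP and the heavy chain, was at 377, 348 and 311 CPM in siControl and at 241, 239 and 233 CPM in siDAB2IP. It fell by 0.54 on the log2 scale (SE 0.11, edgeR adjusted p = 0.0104). TAPBPL, the tapasin-related peptide editor, fell from 14.7 ± 1.59 to 7.09 ± 1.26 CPM (mean ± SD, n = 3, edgeR adjusted p = 0.00507). Both kept their calls in all 6 leave-one-out fits.

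PDIA3, the oxidoreductase of the loading complex, fell from 715 ± 72.4 to 515 ± 39.5 CPM (mean ± SD, n = 3, log2 fold change −0.47, edgeR adjusted p = 0.0286). CANX, which encodes the chaperone calnexin, fell from 2284 ± 150 to 1674 ± 177 CPM (log2 fold change −0.45, edgeR adjusted p = 0.0466). ERAP1, the aminopeptidase that trims peptides in the endoplasmic reticulum, fell from 63.9 ± 3.67 to 46.4 ± 2.25 CPM (log2 fold change −0.46, edgeR adjusted p = 0.0129). These calls were less steady: ERAP1 lost its call without siControl replicate 2 (edgeR adjusted p = 0.0636), PDIA3 in 4 of the 6 fits (adjusted p up to 0.119) and CANX in 5 (up to 0.138). CALR, which encodes calreticulin, went from 1004 ± 122 to 700 ± 183 CPM with overlapping groups (log2 fold change −0.52, edgeR adjusted p = 0.0852; 0.01 with the block). ERAP2 was at 9.07 ± 0.83 and 7.35 ± 1.38 CPM (edgeR adjusted p = 0.298). CANX, PDIA3 and CALR also serve glycoprotein folding in general. With the block, 6 genes of this list fell and 1, the signal peptide peptidase gene HM13, rose.

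Among the 16 constitutive proteasome core and cap genes, 3 rose (PSMB5, PSMB7 and PSMA5) and 0 fell (0 also by DESeq2 and at an unadjusted p under 0.05). With the block 6 rose. Of the 16, 14 had a log2 fold change above 0, and the median was 0.23. PSMA5, a structural subunit of the outer ring, rose from 47.4 ± 4.8 to 63.1 ± 6.74 CPM (mean ± SD, n = 3, edgeR adjusted p = 0.0430), a call kept in 1 of the 6 leave-one-out fits, that without siDAB2IP replicate 3, where 6 genes of the list rose. Of the 8 other immunoproteasome and assembly genes, 1 rose, the assembly chaperone gene PSMG3 (log2 fold change 0.42, edgeR adjusted p = 0.0223), and 0 fell (1 by DESeq2 and 2 at an unadjusted p under 0.05). With the block 2 fell, PSMB10 and the proteasome activator gene PSME1 (edgeR adjusted p = 0.0196). PSMG3 lost its call in 4 of the 6 fits (adjusted p up to 0.0971). The median of this list was −0.13.

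Regulators of class I transcription moved in both directions. Of 18 genes, 2 rose and 3 fell, with a median log2 fold change of −0.07. IRF1, the interferon-inducible factor that binds class I promoters, was at 23.7, 23.0 and 16.1 CPM in siControl and at 14.4, 11.1 and 12.8 CPM in siDAB2IP, and fell by 0.71 on the log2 scale (SE 0.18, edgeR adjusted p = 0.0264). NFKB1, which encodes the p50 subunit of NF-κB, fell from 87.4 ± 3.73 to 63.6 ± 7.52 CPM (mean ± SD, n = 3, edgeR adjusted p = 0.0217), while RELA, its p65 partner, was at 68.9 ± 2.11 and 73.5 ± 5.07 CPM (edgeR adjusted p = 0.551). CIITA, the class II transactivator, fell from 6.15 ± 1.37 to 2.86 ± 0.94 CPM (edgeR adjusted p = 0.0273). NLRC5, the transactivator of class I genes, was lower in each siDAB2IP library than in each siControl library, at 27.4 ± 2.39 and 21.9 ± 0.79 CPM, but did not pass the threshold (log2 fold change −0.32, edgeR adjusted p = 0.0984; 0.0729 with the block). RFX5 and RFXANK, subunits of the factor that recruits these transactivators, rose by log2 fold changes of 0.36 and 0.46 (adjusted p = 0.0455 and 0.0172 from edgeR). Each of the 5 calls was lost without siControl replicate 2, with adjusted p up to 0.170 over the leave-one-out fits, and NFKB1, the steadiest, kept its call in 4 of the 6.

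Of 12 interferon receptor and Janus kinase pathway genes, 4 fell and 0 rose (0 also by DESeq2 and at an unadjusted p under 0.05), with a median log2 fold change of −0.33. JAK1, the kinase shared by the type I, II and III interferon receptors, was at 99.9, 106 and 105 CPM in siControl and at 58.5, 60.6 and 54.0 CPM in siDAB2IP. Its groups were far apart, it fell by 0.84 on the log2 scale (SE 0.09, edgeR adjusted p = 0.000862), and the call held in all 6 leave-one-out fits. IFNGR1, the ligand-binding chain of the interferon γ receptor, fell from 402 ± 37.9 to 285 ± 33.7 CPM (mean ± SD, n = 3, edgeR adjusted p = 0.0264). IFNAR2, a chain of the type I receptor, fell from 2.05 ± 0.61 to 0.793 ± 0.120 CPM (edgeR adjusted p = 0.0268). SOCS3, a feedback inhibitor of Janus kinases, fell from 11.5 ± 2.59 to 4.04 ± 2.50 CPM (edgeR adjusted p = 0.0419; 0.0932 from DESeq2). IFNGR1 and SOCS3 each kept their calls in 3 of the 6 fits and IFNAR2 in 2 (adjusted p up to 0.129), and all 3 lost them without siControl replicate 2.

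Interferon-stimulated genes did not move together. Of 39 listed, 34 were tested, 5 rose and 4 fell, and the median log2 fold change was 0.01, as over all genes to 2 decimals. With the block 7 rose and 9 fell. DTX3L, a ubiquitin ligase, fell from 49.6 ± 4.11 to 27.5 ± 2.88 CPM (mean ± SD, n = 3, edgeR adjusted p = 0.00264), and IFITM2, a membrane protein that restricts viral entry, fell from 175 ± 9.65 to 80.6 ± 24.0 CPM (edgeR adjusted p = 0.00595). Its relative IFITM3 fell from 421 ± 51.5 to 243 ± 63.5 CPM (edgeR adjusted p = 0.0215), and OAS3, a synthetase of the antiviral RNase L pathway, from 67.9 ± 4.29 to 39.6 ± 12.8 CPM (edgeR adjusted p = 0.0332). In the other direction, IFI6 rose from 9.99 ± 1.92 to 22.7 ± 9.28 CPM (edgeR adjusted p = 0.0173), IFI27 from 1.09 ± 0.14 to 3.66 ± 1.84 CPM (edgeR adjusted p = 0.0156) and ISG15, a ubiquitin-like modifier, from 2.42 ± 0.54 to 4.68 ± 1.18 CPM (edgeR adjusted p = 0.0433). IFI44 and IFI44L also rose (log2 fold changes 0.59 and 0.45). Leaving out single libraries lost no call of DTX3L or IFITM2. The counts were 0 rose and 2 fell without siControl replicate 1, 1 and 2 without siControl replicate 2, 1 and 3 without siControl replicate 3 and 3 and 5 without siDAB2IP replicate 1. IFITM2 and IFITM3 are near-identical copies, so the division of reads between them is uncertain.

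Class I-like genes, which share the fold of class I heavy chains but serve other receptors, went up where they changed. Of 12 listed, 9 were tested, 3 rose and 0 fell (0 also by DESeq2 and at an unadjusted p under 0.05), and the median log2 fold change was 0.22. MR1, which presents vitamin B metabolites to MAIT cells, was at 129, 115 and 87.5 CPM in siControl and at 189, 159 and 161 CPM in siDAB2IP, a log2 fold change of 0.62 (SE 0.14, edgeR adjusted p = 0.0198). MICA, a stress ligand of the receptor NKG2D, rose from 41.5 ± 4.92 to 58.4 ± 10.0 CPM (mean ± SD, n = 3, adjusted p = 0.0430), and ULBP2, another NKG2D ligand, rose from 1.45 ± 0.99 to 4.82 ± 1.25 CPM (edgeR adjusted p = 0.0385). Without siControl replicate 2, and likewise without siControl replicate 3, none of the 3 passed the threshold (adjusted p up to 0.164), and without siDAB2IP replicate 2 only 1 gene of the list did. Class II presentation genes were nearly silent, as 8 of 11 stayed under 1 CPM in every library and 4 had no count. Only 2 could be tested, and 0 rose or fell (0 also by DESeq2 and at an unadjusted p under 0.05), although 1 fell without siDAB2IP replicate 1 and 1 without siDAB2IP replicate 3.

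**Figure D5:**
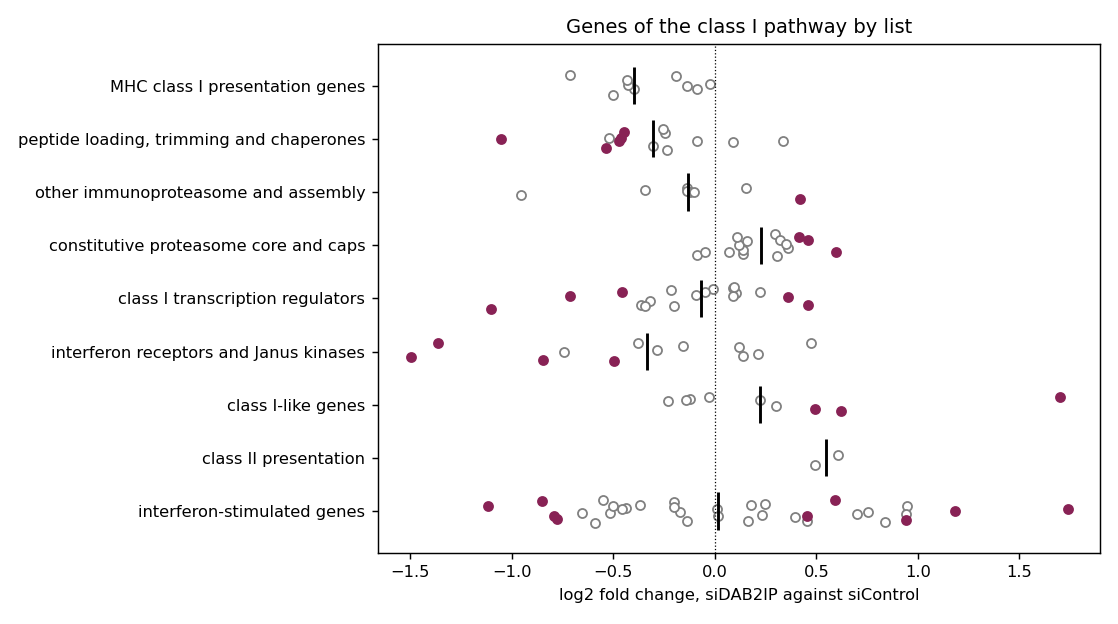
Log2 fold change of every tested gene (points) in the members and in 8 lists of class I pathway genes, from edgeR without the replicate block, with filled points for an adjusted p under 0.05 and a vertical bar at each list's median. The members have no filled point and a median of −0.40, the loading genes have 5 filled points on the left, and the constitutive proteasome genes have a median of 0.23 with 3 filled points on the right.

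The pattern of the members over the 6 libraries was averaged after each gene's log2 CPM was centred on its own mean. This profile was 0.23, 0.27 and −0.02 in siControl and −0.04, −0.02 and −0.43 in siDAB2IP, so siControl replicate 3 lay level with siDAB2IP replicates 1 and 2. Among 9429 other genes with a mean of at least 10 CPM, those with the smallest root mean square difference from it over these 6 libraries were NAP1L1 (0.0369 log2 units), TRIM8 (0.0400), MLST8 (0.0409), IAH1 (0.0442) and NCAPH2 (0.0455), against a median of 0.276 for all candidates. These 5 genes had log2 fold changes between −0.27 (NAP1L1) and −0.36 (MLST8). They were picked by their likeness to the members over these same libraries, so the direction and rough size of their fold changes follow from that choice. No test of them is therefore reported.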

How the data were processed

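RNA-Seq data of 6 MCF10A libraries (3 siControl, 3 siDAB2IP, 48 hours after transfection) were used. The authors deposited whole-number read counts per gene and library without normalization, and they also deposited FPKM values, in which the counts are divided by gene length and library size. Submitters' processing notes name the build hg38 and the tools STAR 2.6.1d, featureCounts 1.5.0-p3, DESeq2 1.20.0 and edgeR 3.24.3, without their roles. Strandedness in counting is not given in the sources used here. Columns of other samples numbered 0.

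The quasi-likelihood test of edgeR 4.0.16 under R 4.3.3 was applied to the counts (TMM, filterByExpr on the groups, glmQLFit, glmQLFTest), with Benjamini-Hochberg adjustment over the 15430 genes tested, and genes with an adjusted p under 0.05 were said to rise or fall. The common biological coefficient of variation was 14.8%. Single values and the 4 planned ratios of FPKM were compared with two-sided exact permutation tests. Promoter entries came from RefSeq, and HLA-E had no entry. The NF-κB consensus was searched as GGGRNNYYCC (R for A or G, Y for C or T, N for any base). GAANNGAAA and CCAAT were searched as written. All searches covered both strands with overlaps allowed.

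Replicate numbers 1 to 3 come from the labels. Deviations from the group means correlated at 0.26, 0.15 and 0.25 across genes between libraries of the same number and at −0.28 to 0.02 otherwise. Deviations cancel within a group, so positive values for equal numbers bring negative ones elsewhere. With so few libraries the check is weak, and treating equal numbers as pairs remains an assumption. The labels do not say what a number stands for.

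The members and lists were chosen with earlier results of these data known. The genes named are the members, DAB2IP, PSMB5, PSMB6, PSMB7, PSMB10, TAPBP, CALR, PDIA3, ERAP1, ERAP2, NLRC5, IRF1, RELA and NFKB1, the genes of each list that passed the threshold (the 5 with the smallest p where there were more), and the 5 genes of at least 10 CPM whose centred log2 CPM profile was nearest to that of the members. Some genes of the rule are not reported here. HLA-G, HM13, PSME1, the marker genes and overlapping genes were named after their values were seen. On simulated counts with 200 genes changed by 1 log2 unit, 67.5% were recovered, with 15 false calls among 15092 genes. Alternatives were DESeq2 1.42.0, other scalings and filters, a stricter threshold, a replicate block, limma 3.58.1 on log2 of FPKM plus 1 or 0.1 and leaving out single libraries.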

Additional observations from a re-analysis of the deposited data

How the results depend on the processing

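The replicate block changed the call of HLA-B (−0.40), HLA-F (−0.50), B2M (−0.44) and PSMB8 (−0.43) among the members, and no other call of a member. Members that fell numbered 4 with the replicate block, 4 without a filter, 2 with DESeq2, 1 with at least 10 counts in every library, and, with the block, 1 without both replicate 1 libraries and 4 without both replicate 3 libraries. With at least 10 counts in every library, 1259 of all 14024 genes tested fell and 914 rose. They numbered 0 with RLE or library size scaling, with limma on FPKM, where PSMB9 was too low for the fits at a mean FPKM of at least 1, and at an adjusted p under 0.01. The cause of these shifts was not tested. Past the threshold, log2 fold changes were, without a filter, −0.41 for HLA-B, −0.51 for HLA-F, −0.44 for B2M and −0.45 for PSMB8. With DESeq2 they were −0.50 for HLA-F and −0.43 for B2M, and with at least 10 counts −0.51 for HLA-F. With the block without both replicate 3 libraries they were −0.41 for HLA-B, −0.51 for HLA-F, −0.35 for B2M and −0.46 for PSMB8, and without both replicate 1 libraries −0.56 for B2M. TAP2 changed sign with library size only (0.013), with the block without both replicate 3 libraries (0.035) and without siDAB2IP replicate 3, and leaving out single libraries gave −0.064 to 0.026. The same omissions gave −0.64 to −0.39 for HLA-F, 0 to 1 members that fell, 1 to 14 and 5 to 19 genes of the 8 lists that rose and fell, and 264 to 1172 and 459 to 1352 of all genes tested. On log2(FPKM + 1), 7 list genes rose and 10 fell, on log2(FPKM + 0.1) 6 and 9, on log2(FPKM + 1) for all genes with a count 1 and 3. At the stricter threshold 0 rose and 4 fell, and without a filter 25 fell. Over all genes these settings gave 659 and 758 on log2(FPKM + 0.1), 176 and 202 for all genes with a count, and 254 and 368 at the stricter threshold. Of the values recomputed under an alternative, counts of genes included, 262 stayed on their side of the threshold or, for counts, within 1.5 times, 37 counts moved further, 17 passed the threshold newly and 3 changed sign. Some of the 262 could not have passed it. These include the ratios, whose exact permutation p cannot go below 0.1, and the members at the stricter threshold. The tally is therefore no measure of how steady the results are. Depth was lowest for PSMB9, with 20 to 77 counts.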
